A study of Mus musculus with 8 samples.

Results

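The Rab3 and Rab27 GTPases of secretory vesicles were followed across islets of 2 inbred mouse strains, together with Rab37 and the Golgi GTPases Rab6a and Rab6b. The members were 9 genes, Rab3a, Rab3b, Rab3c, Rab3d, Rab27a, Rab27b, Rab37, Rab6a and Rab6b, and all 29 probe sets that the platform annotation assigns to one of them alone, out of 45037 probe sets and 18194 named genes. Rab3c and Rab6b entered the set because of their large strain differences in these same arrays, so their values are given as a description without a test. The other 7 genes entered as relatives of them, with earlier results of these data known.

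Total RNA of pancreatic islets was hybridised to Affymetrix mouse expression arrays. The groups were AKR/J, arrays 1 to 4, and C57Bl/6J, arrays 5 to 8. All mice of both strains had been fed high-fat chow for 3 months, and no mice on another diet are among these arrays. Each array held 1 RNA sample made by combining islets of 2 mice, so that the spread between arrays is a spread between pools. The age and sex of the mice are not given in the sources used here, and the labels name neither a transgene nor a drug.

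Rab GTPases are molecular switches that mark a membrane compartment when they carry GTP and recruit effector proteins to it. Rab3 and Rab27 proteins sit on secretory granules, including the insulin granules of beta cells, and act when granules are tethered and docked at the plasma membrane before exocytosis. Rab37 is also found on secretory granules, whereas Rab6 proteins direct traffic through and out of the Golgi apparatus, where granules are formed.

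The sequences upstream of Rab3c and Rab6b are shown because these 2 genes had the largest strain differences among the members. They come from RefSeq, build GRCm38.p6, which is the C57BL/6J genome, and each runs from 250 bases before to 50 bases after an annotated start of the gene. The Rab3c window is chr13:110280157-110280456 on the minus strand and the Rab6b window is chr9:103111824-103112123 on the plus strand. Capitals mark matches on either strand to the GC box, GGGCGG, the letters bound by Sp1-type factors. Other promoter patterns were searched on both strands in the same way and are not marked.
Rab3c: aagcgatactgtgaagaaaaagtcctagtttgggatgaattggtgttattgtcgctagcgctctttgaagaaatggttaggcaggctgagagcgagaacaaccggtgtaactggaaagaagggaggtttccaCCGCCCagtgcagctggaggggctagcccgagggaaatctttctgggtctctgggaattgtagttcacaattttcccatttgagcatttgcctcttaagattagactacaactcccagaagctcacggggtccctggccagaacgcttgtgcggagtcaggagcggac
Rab6b: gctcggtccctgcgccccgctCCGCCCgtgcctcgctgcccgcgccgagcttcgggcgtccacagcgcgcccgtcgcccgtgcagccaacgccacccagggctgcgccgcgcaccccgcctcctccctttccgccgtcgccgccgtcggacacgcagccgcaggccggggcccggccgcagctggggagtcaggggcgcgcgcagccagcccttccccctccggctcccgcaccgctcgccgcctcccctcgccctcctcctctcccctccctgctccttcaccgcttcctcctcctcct

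The windows differed in base composition. The Rab3c window was 50.7% G or C, against a median of 52.7% over 32851 windows of the same length, and the Rab6b window was 78.7%, above 98.4% of them. The Rab3c window held 11 CG dinucleotides and the Rab6b window 42, against a median of 7. Each window held 1 GC box, as 35.7% of all windows hold at least 1. The CCAAT box, CCAAT, was found 1 time in the Rab3c window and not in that of Rab6b, and 37.4% of all windows hold it. Neither window held the TATA box TATAAA, which is in 13.6% of all windows. The cAMP response element TGACGTCA, in 1.79%, and the E box CACGTG, in 7.15%, were not found in either. None of these matches overlapped another. These are descriptions of the reference sequence of 1 strain, and the sequence in AKR/J was not analysed here.

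Expression is given as the log2 of the deposited GCRMA intensity, a background-corrected and normalised value for each probe set. A probe set counted as detected on an array where the detection p-value of the scanner software was under 0.05. Between 43.7% and 48.1% of all probe sets were detected per array. A probe set was tested when it was detected on at least 4 of the 8 arrays, which left 20772 probe sets in all and 24 of the 29 of the members, of which 15 were detected on all 8 arrays. The fit was limma's moderated linear model across all tested probe sets, AKR/J minus C57Bl/6J, with Benjamini-Hochberg adjustment and a threshold of 0.05. Levels of different probe sets were not compared, since each binds its probes differently. Probe sets ending in _x_at or _s_at can bind several transcripts. Among the tested members these were 1459980_x_at (Rab3a), 1443764_x_at (Rab27b), 1447776_x_at (Rab6a) and 1460617_s_at (Rab6b).

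The arrays carried the defining transcripts of islets, with Ins2 at a mean log2 value of 15.71 in AKR/J versus 15.50 in C57Bl/6J and Iapp at 15.63 and 15.45. Acinar transcripts were bright as well, with Cela3b at 15.47 and 16.04. Of 17 measured acinar markers, 16 passed the threshold towards C57Bl/6J, as did 6 of 8 macrophage markers, 2 of 3 lymphocyte markers, 1 of 2 duct markers and 2 of 8 beta cell markers. Of 6 endothelial markers, 4 passed it towards AKR/J, as did 1 of 10 neuron and Schwann cell markers, 1 of 5 markers of the other endocrine cells and 1 tested melanocyte marker. Among 6 fibroblast and pericyte markers, 1 passed it in each direction. Of all 10891 tested genes, 8.8% passed it towards AKR/J and 9.48% towards C57Bl/6J. No mast cell marker was tested, and 4 of 6 (Cma1, Cpa3, Mcpt4 and Tpsb2) were not detected on any array. In whole islets, fewer cells of a type and less RNA per cell cannot be told apart.

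**Figure D1:**
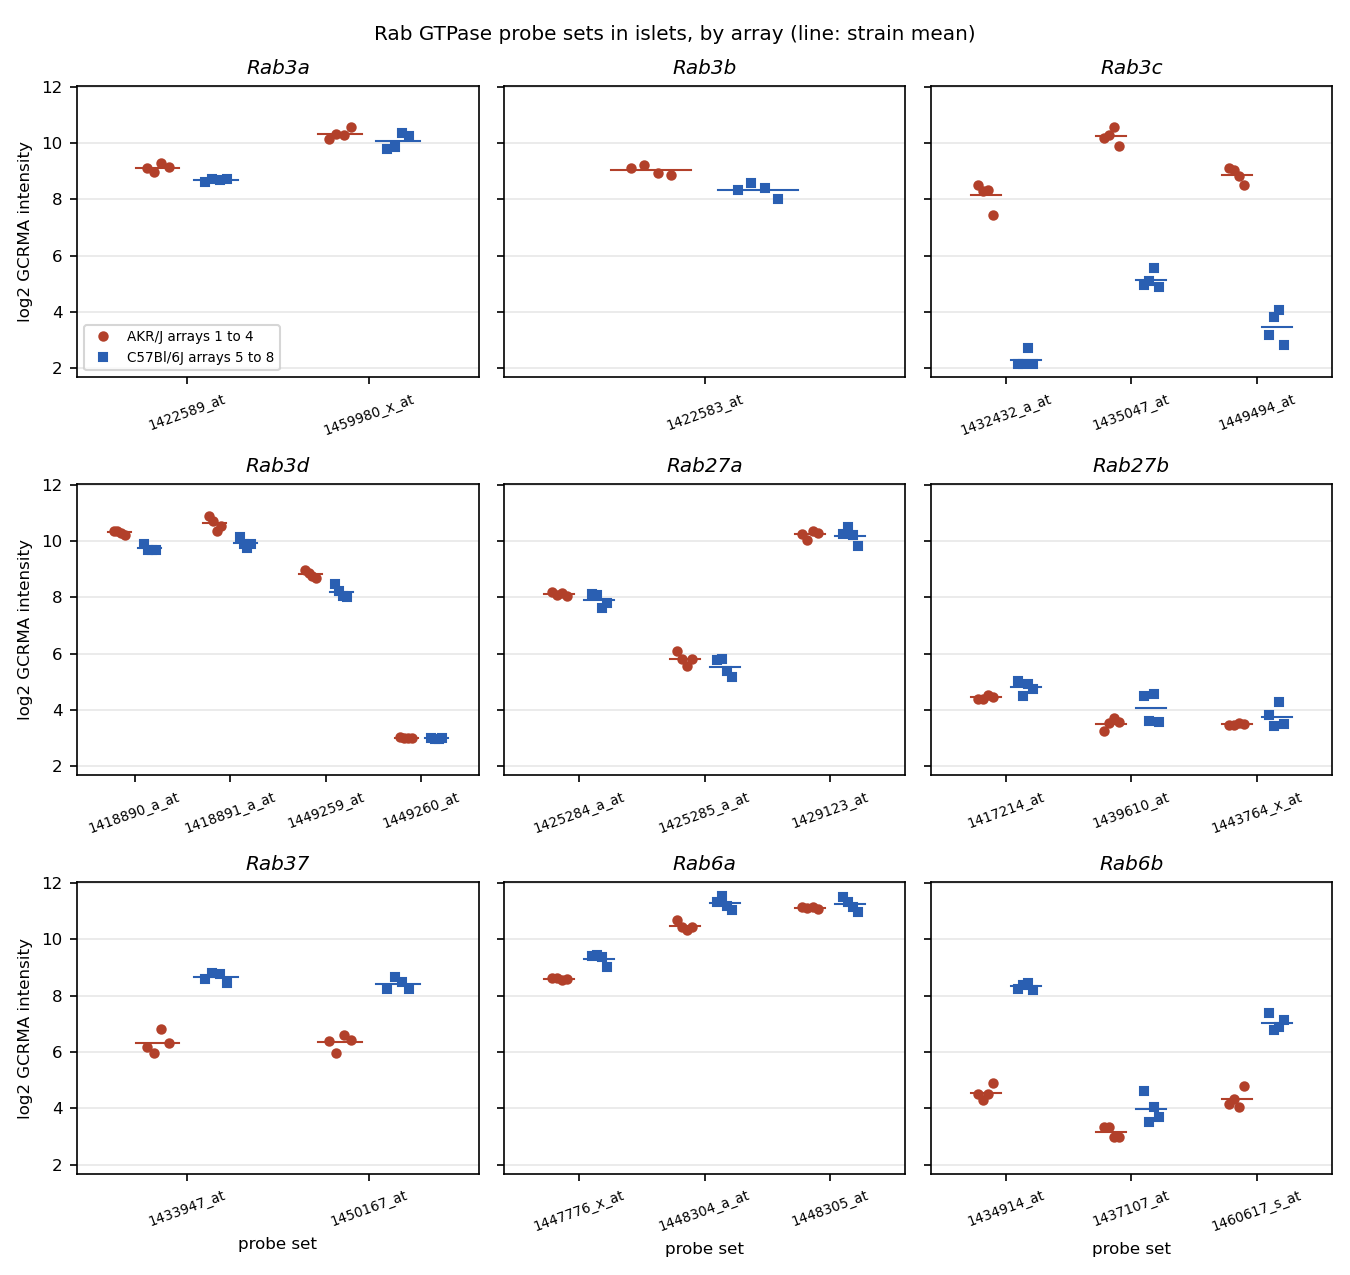
Log2 GCRMA intensity of the 24 tested probe sets (x axis: probe set, in a panel per gene; y axis: log2 intensity), with a point per array, circles for AKR/J arrays 1 to 4, squares for C57Bl/6J arrays 5 to 8, and a line at the strain mean. The strains are far apart for Rab3c (AKR/J high) and for Rab37 and 1434914_at and 1460617_s_at of Rab6b (C57Bl/6J high). The Rab27a and Rab27b points of the strains overlap.

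Rab3c was far higher on every AKR/J array than on any C57Bl/6J array by each of its 3 tested probe sets. Of these, 1432432_a_at was detected in AKR/J alone. By the brightest, 1435047_at, the log2 values were 10.19, 10.28, 10.57 and 9.88 on AKR/J arrays 1 to 4 and 4.94, 5.10, 5.55 and 4.89 on C57Bl/6J arrays 5 to 8. The lowest AKR/J array lay 4.33 above the highest C57Bl/6J array. The difference was 5.11 ± 0.19 (SE, n = 4 per strain), or 34.6-fold, and the probe set was detected on 3 of 4 C57Bl/6J arrays.

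A second Rab3c probe set, 1449494_at, read 9.11, 9.04, 8.84 and 8.51 in AKR/J versus 3.17, 3.81, 4.07 and 2.83 in C57Bl/6J, where it was detected on 2 of 4 arrays. This is a difference of 5.41 ± 0.28, or 42.4-fold. The third, 1432432_a_at, read 8.51, 8.30, 8.31 and 7.45 in AKR/J versus 2.16, 2.15, 2.71 and 2.15 in C57Bl/6J. It was not detected on any C57Bl/6J array and passed the detection filter through AKR/J alone. Its 57.7-fold difference is set against undetected values, so its size is uncertain. Within the strains the 3 probe sets ordered some arrays alike: array 4 was the lowest of AKR/J and array 7 the highest of C57Bl/6J by all 3. On array 7 the value of 1432432_a_at was undetected. The remaining 2 Rab3c probe sets, 1432415_at and 1449798_at, were not detected on any array of either strain and give no measure of the gene.

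The scanner software's own summary, a MAS5-type signal on a linear scale, put 1435047_at at 1194, 1203, 1218 and 865 in AKR/J versus at 62.9, 69.2, 82.3 and 58.2 in C57Bl/6J. After quantile normalisation its log2 difference was 4.05, and that of 1449494_at was 4.0, both smaller than with GCRMA and in the same direction. That of 1432432_a_at was 5.11, again against a strain in which it was not detected. Rab3c is known as a neuronal member of its family. Of 10 measured neuron and Schwann cell markers only the catecholamine enzyme gene Th passed the threshold and is named for that. Th was at 9.44 in AKR/J versus 6.86 in C57Bl/6J (limma adjusted p = 4.07e-06). The median difference of the list was -0.05. Its summed log2 level, in which the brightest genes weigh most, was 12.27 to 12.38 in AKR/J versus 11.88 to 12.10 in C57Bl/6J. Snap25, the brightest member of the list, was at 11.79 and 11.61, and Gfap was not detected on any array. The part of such cells in the Rab3c difference was not tested.

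The other Rab3 genes were higher in AKR/J too, by far less. Rab3a, the main Rab3 of synaptic vesicles and also an insulin granule protein, read 9.11, 8.96, 9.27 and 9.16 in AKR/J versus 8.62, 8.70, 8.68 and 8.71 in C57Bl/6J by 1422589_at. The strains did not overlap, and the difference was 0.45 ± 0.08 (1.36-fold, limma adjusted p = 0.00732). In the MAS5-type signals it was 0.23 (adjusted p = 0.304), so the Rab3a call did not hold there.

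The second Rab3a probe set, 1459980_x_at, did not pass (0.26 ± 0.15, adjusted p = 0.285). Its C57Bl/6J values fell into a low pair, 9.78 and 9.85 on arrays 5 and 6, and a high pair, 10.35 and 10.25 on arrays 7 and 8, and the high pair overlapped with the AKR/J values of 10.14 to 10.55. The 95% interval of the difference ran from -0.08 to 0.61, which includes the size found by the first probe set.

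Rab3b, a Rab3 of neuroendocrine and epithelial cells, has 1 probe set. It read 9.10, 9.20, 8.94 and 8.85 in AKR/J versus 8.33, 8.57, 8.39 and 7.99 in C57Bl/6J. All AKR/J arrays were above all C57Bl/6J arrays, by a mean of 0.70 ± 0.13 (1.63-fold, limma adjusted p = 0.0115). The MAS5-type signals gave 0.87 (adjusted p = 0.0184). With 1 probe set, a sequence difference under the probes and a difference in transcript level cannot be told apart. Strain differences in sequence under the probes were not analysed for any member, Rab37, Rab6a and Rab6b included.

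Rab3d, the Rab3 of zymogen granules in acinar cells, was higher in AKR/J by 3 of its 4 tested probe sets. By 1418890_a_at it read 10.36, 10.37, 10.30 and 10.22 in AKR/J versus 9.91, 9.69, 9.69 and 9.70 in C57Bl/6J, a difference of 0.56 ± 0.08 (1.48-fold, limma adjusted p = 0.00236). By 1418891_a_at the difference was 0.70 ± 0.13 (adjusted p = 0.0103) and by 1449259_at 0.62 ± 0.12 (adjusted p = 0.0121), each without overlap of the strains. In the MAS5-type signals the difference of 1418891_a_at was 0.38 (adjusted p = 0.0893) and no longer passed.

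On the same arrays the acinar markers had a median log2 difference of -0.81 over 17 genes, and the summed level of the list was 17.83 to 18.07 in AKR/J versus 18.62 to 18.65 in C57Bl/6J. The part of acinar cells in the Rab3d difference was not tested. The last Rab3d probe set, 1449260_at, lay between 2.97 and 3.05 on all 8 arrays, near the floor of the GCRMA scale, and did not differ between strains by more than 0.15 at the upper end of its 95% interval.

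Rab27a, which docks insulin granules through granuphilin, did not pass by any of 3 tested probe sets. The brightest, 1429123_at, read 10.24, 10.05, 10.37 and 10.28 in AKR/J versus 10.24, 10.49, 10.21 and 9.83 in C57Bl/6J. The C57Bl/6J arrays spanned the AKR/J range, and the difference was 0.04 ± 0.14 (limma adjusted p = 0.879), with a 95% interval from -0.28 to 0.36. The MAS5-type signals of this probe set did not overlap, at 1068 to 1423 in AKR/J versus 725 to 1045 in C57Bl/6J, and their log2 difference of 0.54 just missed the threshold (adjusted p = 0.0587). The other 2 tested probe sets, 1425284_a_at and 1425285_a_at, gave 0.22 ± 0.11 (adjusted p = 0.233) and 0.27 ± 0.17 (adjusted p = 0.343). Another, 1454438_at, was detected on 3 arrays and was not tested.

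Rab27b, the relative of Rab27a in acinar cells, platelets and mast cells, was dim throughout. Probe set 1417214_at read 4.41, 4.38, 4.54 and 4.47 in AKR/J versus 5.05, 4.50, 4.92 and 4.74 in C57Bl/6J and was detected on 3 arrays of each strain. Its difference of -0.35 ± 0.12 did not pass (limma adjusted p = 0.0887), though it did without array 6 (-0.45, adjusted p = 0.0257). In 1439610_at, arrays 5 and 7 stood at 4.50 and 4.58, above the 6 others at 3.25 to 3.72, so that the difference of -0.54 ± 0.26 rests on those 2 arrays (adjusted p = 0.208). Arrays 5 and 7 were also the highest in 1443764_x_at, at 3.83 and 4.27 against 3.43 to 3.53 on the others (adjusted p = 0.364). The remaining probe set, 1417215_at, was not detected on any array.

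Rab37, a Rab of secretory granules in mast cells and beta cells, had the largest difference among the 7 genes that were not chosen by value. By 1433947_at it read 6.18, 5.96, 6.82 and 6.33 in AKR/J versus 8.59, 8.81, 8.78 and 8.44 in C57Bl/6J. The highest AKR/J array was 1.63 below the lowest C57Bl/6J array, and the mean difference was -2.33 ± 0.18, or 5.03-fold in favour of C57Bl/6J (limma adjusted p = 0.000133). It was detected on all 8 arrays, so the fold is not set against undetected values.

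The second Rab37 probe set, 1450167_at, gave a like picture, with 6.40, 5.98, 6.59 and 6.42 in AKR/J versus 8.23, 8.65, 8.48 and 8.25 in C57Bl/6J (-2.06 ± 0.15, 4.16-fold, adjusted p = 0.000101). Array 3 was the highest of AKR/J and array 6 the highest of C57Bl/6J by both. In the MAS5-type signals the differences were -2.14 (adjusted p = 0.000132) and -1.41 (adjusted p = 0.00466). Within arrays 3, 4, 7 and 8 alone, the difference of 1433947_at was -2.04, with an adjusted p of 0.0506.

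Some markers of other cells were also higher in C57Bl/6J. The acinar list is given above, and the macrophage list had a median difference of -0.80 over 8 genes and a summed level of 10.71 to 11.09 in AKR/J versus 11.58 to 11.99 in C57Bl/6J. Of 6 markers of mast cells, in which Rab37 was first described, 4 (Cma1, Cpa3, Mcpt4 and Tpsb2) were undetected on every array. Kit and Ms4a2 were detected on some arrays, though on too few to be tested. The part of acinar cells, macrophages and mast cells in the Rab37 difference was not tested.

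Rab6a, the ubiquitous Golgi Rab6, was higher in C57Bl/6J by 2 of 3 probe sets. By 1448304_a_at it read 10.67, 10.43, 10.32 and 10.43 in AKR/J versus 11.31, 11.55, 11.19 and 11.05 in C57Bl/6J (-0.81 ± 0.12, 1.76-fold, limma adjusted p = 0.00386). By 1447776_x_at it read 8.63, 8.64, 8.56 and 8.60 in AKR/J versus 9.42, 9.45, 9.38 and 9.0 in C57Bl/6J (-0.71 ± 0.11, adjusted p = 0.00376). The strains did not overlap in either.

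By 1448305_at the Rab6a strains overlapped, with AKR/J at 11.09 to 11.16 and C57Bl/6J at 10.97 to 11.50 (-0.11 ± 0.11, adjusted p = 0.554). Its 95% interval, from -0.36 to 0.15, does not include the difference of either other probe set. The MAS5-type signals kept the call of 1448304_a_at (-0.71, adjusted p = 0.00654) and not that of 1447776_x_at (-0.05, adjusted p = 0.914). The probe sets of Rab6a therefore did not give a single answer for the gene. The part of sequence differences under the probes in this was not tested.

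Rab6b, a Rab6 known mainly from neurons, was higher in C57Bl/6J without overlap of the strains by its 3 tested probe sets, of which 1 was detected in both strains. By 1434914_at it read 4.49, 4.30, 4.49 and 4.89 in AKR/J versus 8.24, 8.39, 8.46 and 8.21 in C57Bl/6J. The gap between the strains was 3.33, and the difference was -3.78 ± 0.13, or 13.8-fold, with detection on all 8 arrays. Array 4, the highest of AKR/J here, was also the highest of AKR/J in 1460617_s_at.

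In 1460617_s_at Rab6b read 4.16, 4.34, 4.06 and 4.80 in AKR/J versus 7.37, 6.77, 6.88 and 7.15 in C57Bl/6J. This is 6.49-fold, set against AKR/J values that were all undetected. In 1437107_at Rab6b read 3.34, 3.33, 2.97 and 2.99 in AKR/J, where it was again not detected, and 4.62, 3.52, 4.05 and 3.68 in C57Bl/6J, 1.75-fold. Both passed the detection filter through C57Bl/6J alone, so the 3 sizes cannot be ranked. In the MAS5-type signals the difference of 1434914_at was -2.64. The remaining probe set, 1455924_at, was detected on 3 C57Bl/6J arrays and was not tested.

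**Figure D2:**
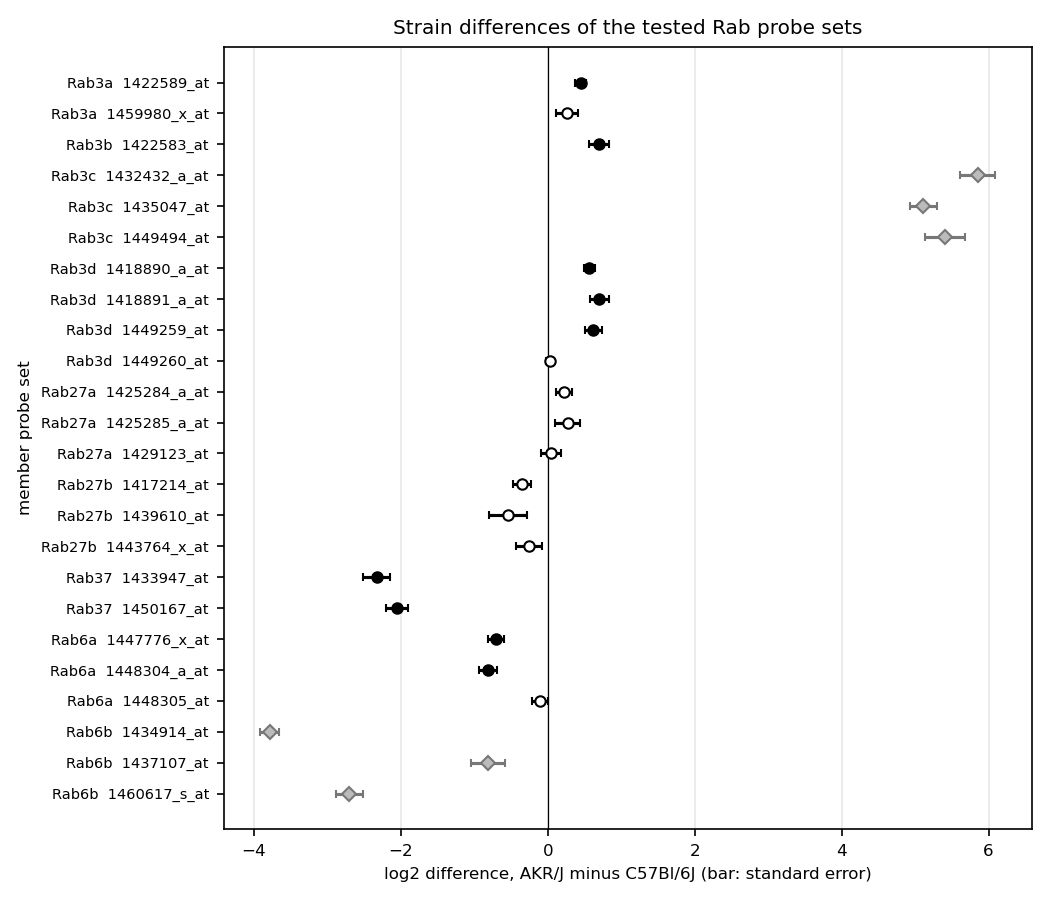
Log2 difference, AKR/J minus C57Bl/6J (x axis), with its standard error, for each of the 24 tested probe sets (y axis). Filled circles passed the adjusted threshold, open circles did not, and grey diamonds are Rab3c and Rab6b, which were picked by this difference and have no test. Rab3 probe sets lie at or right of 0, those of Rab37 and Rab6b left of it.

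For the 7 genes that were not picked by value, 9 of 18 tested probe sets passed, 5 towards AKR/J and 4 towards C57Bl/6J. Over all tested probe sets 14.3% passed, 6.59% towards AKR/J and 7.7% towards C57Bl/6J. The strains did not overlap in 9 of the 18, against 22.9% of all tested probe sets. Each of the 18 was detected on at least 3 arrays of each strain. Probe sets of 1 gene share their transcript and are not separate measurements of the family. The 7 genes were also chosen with earlier results of these data known.

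All probe sets that passed for Rab3a, Rab3b and Rab3d lay on the AKR/J side, and those that passed for Rab37 and Rab6a on the side of C57Bl/6J. Rab37 and Rab6a are single genes, so these directions are those of the genes named and not of branches of the family. Rab27a and Rab27b had no probe set past the threshold by limma, and 1 of their 6 had an unadjusted p under 0.05.

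**Figure D3:**
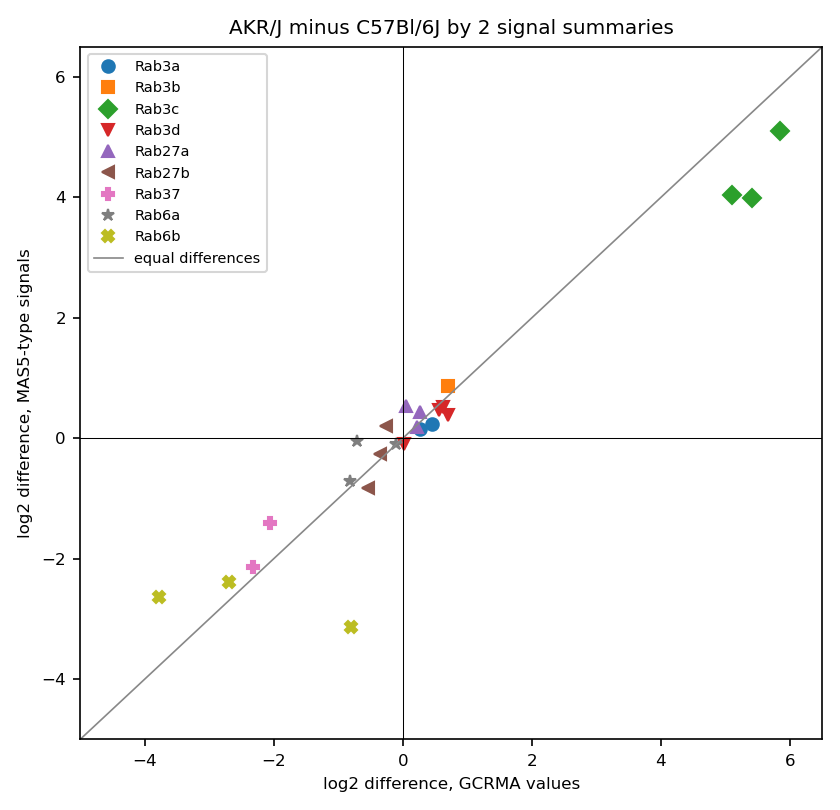
Log2 difference, AKR/J minus C57Bl/6J, of the tested member probe sets from GCRMA values (x axis) and from MAS5-type signals after quantile normalisation (y axis), with a symbol per gene and the line of equal differences. The Rab3c points lie below the line at the right (5.11 to 5.85 against 4.0 to 5.11) and 1437107_at of Rab6b, undetected in AKR/J, below it at the left (-0.81 against -3.14), while Rab3b and Rab3d stay near it.

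Around this switch machinery, other genes of the pathway differed in modest numbers. The list held 48 measured genes that bind, activate, switch off, prenylate or recycle Rab proteins, not all of them specific to the members. Each was taken by its brightest tested probe set. Of these genes, 6 passed towards AKR/J, 3 passed towards C57Bl/6J, and the remaining 39 stayed short of the threshold. Over all 10891 tested genes 8.8% passed towards AKR/J and 9.48% towards C57Bl/6J, 18.3% together. The strains did not overlap in 11 of the 48, against 25.1% of all tested genes. The median difference of the 48 was -0.07, beside 0.00 for all tested genes.

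The effectors, which carry out the Rab's task on the granule, gave 2 of the 15 measured, beside 18.3% of all tested genes. Sytl1, a synaptotagmin-like effector of Rab27, read 8.24, 8.24, 8.16 and 8.19 in AKR/J versus 7.18, 7.01, 6.82 and 7.46 in C57Bl/6J, 2.12-fold higher in AKR/J (limma adjusted p = 0.000807). Iqgap1, a scaffold protein that binds the GDP form of Rab27a, was 1.43-fold higher in AKR/J (adjusted p = 0.0363). The Iqgap1 call was lost without array 1, 2, 3, 4, 6, 7 or 8, with adjusted p up to 0.084. It was also lost with no filter (adjusted p = 0.0766) and as the mean of the gene's probe sets, where the difference was 0.28 (adjusted p = 0.063) in place of 0.51.

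The effectors best known from insulin granules did not pass. Sytl4, which encodes granuphilin, was bright at 11.37 to 11.59 in AKR/J versus 11.01 to 11.86 in C57Bl/6J (-0.01 ± 0.18, limma adjusted p = 0.973). Rims2, a Rab3 effector of the release site, was at 8.36 and 8.69 (adjusted p = 0.0808). It passed without array 5 (-0.42, adjusted p = 0.0339) and with the set of arrays as a block (adjusted p = 0.047). The sets, defined below, were chosen with earlier results of these data known, so the block pass is not separate evidence. Rph3al, the Noc2 gene, was at 9.44 and 9.73 (adjusted p = 0.221). Myrip and Exph5, Rab27 effectors that link granules to the cytoskeleton, were at 5.81 and 5.86 (adjusted p = 0.853) and at 8.91 and 9.10 (adjusted p = 0.133). Mlph, a Rab27a effector best known from melanocytes, had the largest difference towards C57Bl/6J and is named because of it. It was at 3.50 versus 4.83, detected on 2 of 4 AKR/J arrays, and did not pass (adjusted p = 0.0551). Rph3a and Sytl2 were not detected on any array.

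Both subunits of the complex that switches Rab3 off were higher in AKR/J, the strain with the higher Rab3 values. Rab3gap2 read 8.60, 8.55, 8.58 and 8.59 in AKR/J versus 7.97, 7.88, 7.42 and 7.60 in C57Bl/6J (1.82-fold, limma adjusted p = 0.00193). Rab3gap1 read 9.43, 9.41, 9.24 and 9.14 in AKR/J versus 8.86, 8.71, 8.69 and 8.87 in C57Bl/6J (1.43-fold, adjusted p = 0.00594), but was 0.13 in the MAS5-type signals (adjusted p = 0.47). Madd, the exchange factor that switches Rab3 and Rab27 on, was at 8.38 and 8.32 (adjusted p = 0.763).

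Of 16 measured exchange factors and GTPase activators, the other 2 that passed were higher in C57Bl/6J. Of all tested genes 18.3% passed, 9.48% towards C57Bl/6J. Dennd4c, an exchange factor of the DENN family, was at 9.77 and 10.34 (1.48-fold, limma adjusted p = 0.00719). Ric1, a subunit of the exchange complex for Rab6, was at 4.47 and 5.05 (1.49-fold, adjusted p = 0.0453) with a slight overlap of the strains, and is named because of its value. Rgp1, named as its partner, was at 7.0 and 7.19 (adjusted p = 0.463).

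In prenylation and recycling, which attach Rabs to membranes and take them off, 2 of 6 passed, beside 18.3% of all tested genes. Rabac1, the prenylated Rab acceptor, was at 11.81 and 11.37 (1.36-fold higher in AKR/J, limma adjusted p = 0.00851), and 0.13 on the log2 scale in the MAS5-type signals (adjusted p = 0.409). Rabggtb, the catalytic subunit of Rab geranylgeranyl transferase, was 1.31-fold higher in AKR/J (adjusted p = 0.0421), a call lost without array 1, 2, 4, 5, 6, 7 or 8 (adjusted p up to 0.106), with no filter (0.0722) and in the MAS5-type signals (0.0502). Among 11 measured Rab6 effectors 1 passed, beside the same 18.3%. Dennd5b, a relative of a Rab6-binding protein, read 7.04, 7.06, 7.0 and 6.99 in AKR/J versus 7.56, 7.5, 7.94 and 7.38 in C57Bl/6J (1.49-fold higher in C57Bl/6J, adjusted p = 0.0119). It did not pass in the MAS5-type signals (adjusted p = 0.102) or as the mean of the gene's probe sets (0.128).

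**Figure D4:**
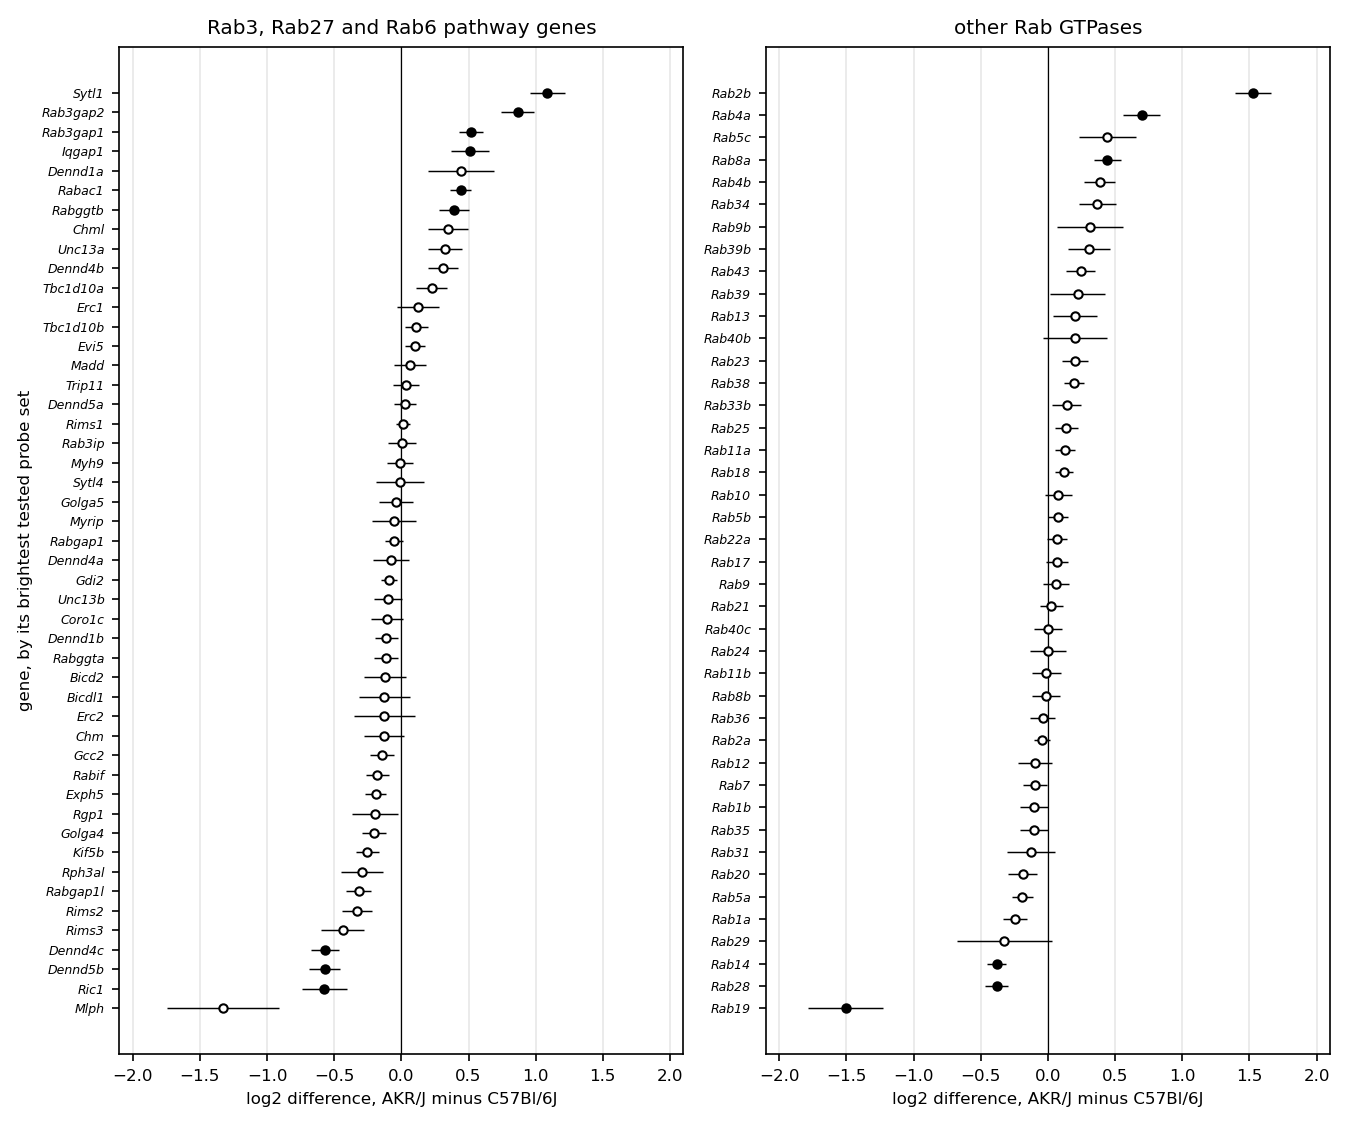
Log2 difference, AKR/J minus C57Bl/6J (x axis), with its standard error, of 48 pathway genes (left) and 42 other Rab GTPases (right), each gene by its brightest tested probe set and ordered by difference (y axis). Filled circles passed the adjusted threshold. Most genes lie within 0.5 of 0, with Sytl1 and Rab2b farthest to the right and Mlph and Rab19 farthest to the left.

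Among the other Rab GTPases, 3 of 42 measured genes passed towards AKR/J, 3 towards C57Bl/6J, and 36 stayed short of the threshold, beside the 18.3% of all tested genes that passed. The strains did not overlap in 10 of the 42, against 25.1% of all tested genes, and the median difference was 0.07. Rab2b, a Rab of the early secretory pathway, was the farthest apart, at 6.90, 6.85, 6.89 and 6.55 in AKR/J versus 5.02, 5.14, 5.56 and 5.37 in C57Bl/6J (2.88-fold, limma adjusted p = 0.000161). Rab4a, of recycling endosomes, was 1.62-fold higher in AKR/J (adjusted p = 0.0107) and Rab8a, of traffic to the plasma membrane, 1.36-fold (adjusted p = 0.0189). As the mean of its probe sets Rab8a was 0.11 (adjusted p = 0.426), and leaving out array 1 or 4 ended its call (adjusted p = 0.0516 and 0.0517).

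On the C57Bl/6J side were Rab19 (2.84-fold, limma adjusted p = 0.00704), Rab28 (1.30-fold, adjusted p = 0.0189) and Rab14 (1.30-fold, adjusted p = 0.00856). Rab19 was detected on 2 of 4 AKR/J arrays, and neither it nor Rab28 passed in the MAS5-type signals (adjusted p = 0.238 and 0.115). Rab14 was -0.26 when probe sets that can bind several transcripts were left out (adjusted p = 0.191) and -0.24 as the mean of its probe sets (0.161). Leaving out array 1 or 2 also ended the Rab28 call (adjusted p = 0.0504 and 0.0538). Rab26, a Rab of acinar and other secretory granules, was not detected on any array, nor were Rab15, Rab33a and Rab44. The largest of these 42 differences was 1.53 on the log2 scale, below those of both Rab37 probe sets.

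The nearest measured genes on each side of Rab3c on its chromosome did not share its difference. Unmeasured genes lay closer to Rab3c, 8 on the side of Pde4d and 4 on that of Plk2. The first measured gene on one side, Pde4d, a phosphodiesterase gene, was at 6.38 in both strains (0.00 ± 0.15, limma adjusted p = 0.991), and Plk2, the first on the other side, was at 5.28 in AKR/J versus 5.59 in C57Bl/6J (adjusted p = 0.422). Gpbp1 (adjusted p = 0.784), Mier3 (0.126) and Ercc8 (0.0798) did not pass. Ercc8 did pass without array 1 (0.63, adjusted p = 0.0197) and with the set of arrays as a block (adjusted p = 0.0415). That block pass is not separate evidence, since the sets were chosen with earlier results of these data known. Elovl7 passed in the opposite direction, 1.56-fold higher in C57Bl/6J (adjusted p = 0.0251), a call that ended on leaving out array 2, 4, 5, 7 or 8 (adjusted p at most 0.175), with no filter (0.336) and with MAS5-type signals (0.931).

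Around Rab6b the picture was mixed. The first measured gene on one side, with 2 unmeasured genes between, was Slco2a1, a prostaglandin transporter gene. Slco2a1 read 6.84, 6.53, 7.14 and 6.98 in AKR/J versus 6.11, 6.02, 6.51 and 6.35 in C57Bl/6J. It was 1.55-fold higher in AKR/J and so opposite to Rab6b (limma adjusted p = 0.0249). That call was lost without array 1, 3, 4, 5 or 6 (adjusted p up to 0.0662), with no filter (0.0593) and in the MAS5-type signals (0.0985). Anapc13 was 1.37-fold higher in C57Bl/6J (adjusted p = 0.00721). Srprb (adjusted p = 0.0603), Topbp1 (0.117), Cdv3 (0.168) and Ryk (0.932) did not pass. Srprb did pass without array 5 (0.62, adjusted p = 0.0461), over probe sets detected on all 8 arrays (0.0481) and after median centring (0.0453). It also passed with another variance model (0.0421) and with the set of arrays as a block (0.0256). Of these, the block pass is not separate evidence, since the sets were chosen with earlier results of these data known.

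**Figure D5:**
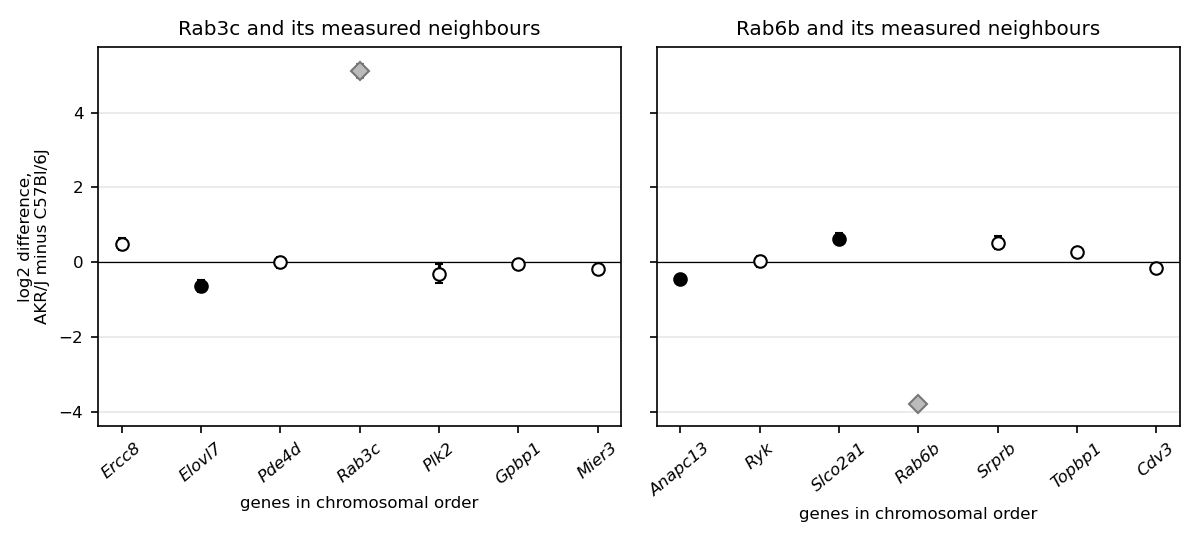
Log2 difference, AKR/J minus C57Bl/6J (y axis), with its standard error, of Rab3c and Rab6b (grey diamonds, no test) and of the 3 nearest genes with a tested probe set on each side (x axis, in chromosomal order, not to scale). Filled circles passed the adjusted threshold. All neighbours lie within 0.64 of 0, while Rab3c is at 5.11 and Rab6b at -3.78.

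The genes whose profiles were closest to those of the 2 picked members were found by the root mean square distance over the 8 arrays between values centred on each gene's mean, among 10890 genes. Closest to Rab3c were Pianp (distance 0.43), Serpina1b (0.48) and Ctrc (0.61). Pianp was at 7.11 in AKR/J versus 2.71 in C57Bl/6J, Serpina1b at 6.66 and 2.05, and the chymotrypsin gene Ctrc at 12.61 and 8.59. Serpina1b was not detected on any C57Bl/6J array, so the size of its difference is uncertain. Closest to Rab6b were the kallikrein gene Klk1b5 (0.25), Mndal (0.28) and the galanin gene Gal (0.29), at 6.82 and 10.52, 3.05 and 6.52, and 3.08 and 6.51. No AKR/J array detected Mndal, so the size of its difference is uncertain too. Serpina1b, Klk1b5 and Mndal have close paralogs, from which their probe sets can take signal. These distances describe likeness over arrays of 2 strains and mostly reflect the size of the strain difference.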

How the data were processed

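Islet RNA of 8 pools, 4 per strain, was measured on 8 arrays. In the value table the authors deposited an intensity per probe set, summarised with GCRMA (version not given), as the submitters' processing notes name it. For each array they also deposited, per the file headers, MAS5-type intensity and a detection p-value. GCRMA values were log2-transformed without further scaling. Columns were checked against the per-array files (r at least 0.676 for matching pairs, at most 0.496 for others). Probe sets were named from GEO's platform annotation where it gives 1 symbol (34945 of 45037), and 64 controls were left out. Strains were compared with limma 3.58.1 in R 4.3.3, keeping probe sets that 4 or more of the 8 arrays detected. Pathway and Rab genes were each fitted by their brightest probe set. Nothing in the labels pairs the strains or names a batch, and the number of arrays limits the precision.

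The members, the lists and the sets of arrays (1, 2, 5 and 6 against 3, 4, 7 and 8) were chosen with earlier results of these data known. No label or file header gives these sets. A block chosen from the same data can lower the residual spread by construction, so passes with it are not separate evidence. Named were all members, up to 6 pathway genes and 4 other Rabs per direction past the threshold without overlap, 7 genes whatever their value, the neighbours and the 3 nearest profiles. The size of a fold is uncertain where no array of the dimmer strain detected the probe set. Alternatives were other filters, MAS5-type signals (floored at the 5th percentile, quantile-normalised), quantile normalisation, median centring, another variance model, array weights, the sets of arrays and each array left out. Tested on simulated data with 20772 probe sets, the fit recovered 44.8% of 1.5-fold, 76.1% of 2-fold and 97% of 4-fold changes, with 10 false calls. There only 67, 67 and 66 probe sets were changed, whereas 2968 were called in the real data. The adjustment depends on that share, so these rates need not hold for the real arrays. Python 3.11.15 with matplotlib 3.10.9 drew the figures.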

Additional observations from a re-analysis of the deposited data

Results flagged for a closer look

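In each group of 4 arrays, a value was singled out when its gap to the nearest other array was past Dixon's 95% critical share of the group's range. Of 48 groups of the 24 tested probe sets 4 met it, where chance gives about 1 in 20. For Rab3c 1432432_a_at, C57Bl/6J array 7 was at 2.71 and the other 3 arrays were at 2.15 to 2.16, all undetected. For Rab3d 1418890_a_at, C57Bl/6J array 5 was at 9.91 against 9.69 to 9.70, still below every AKR/J array. For Rab3d 1449260_at, AKR/J array 1 was at 3.05 against 3.00 to 3.01, a gap of no practical size. For Rab6a 1447776_x_at, C57Bl/6J array 8 was at 9.0 against 9.38 to 9.45, above every AKR/J array.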

How the results depend on the processing

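No paired analysis was possible because the strains share no replicate number. No Rab3a, Rab3b, Rab3d, Rab37 or Rab6a call was lost when any single array was left out. With 2 arrays per strain, 379 and 675 probe sets were higher in AKR/J and in C57Bl/6J in arrays 1, 2, 5 and 6, and 156 and 247 in arrays 3, 4, 7 and 8, against 1369 and 1599 with all. In the first set Rab37 and 1447776_x_at of Rab6a still passed, and in the second 1450167_at of Rab37. Every Rab3a, Rab3b and Rab3d call ended in both sets (adjusted p 0.0629 to 0.155), at differences such as 0.70 and 0.71 for Rab3b and 0.56 in each set for Rab3d 1418890_a_at. Pathway counts in the second set were 1 towards AKR/J and 0 towards C57Bl/6J by limma (6 and 3 at an unadjusted p under 0.05), and other Rab counts 1 and 1; in the first set 0 other Rabs were higher in C57Bl/6J (4 at an unadjusted p under 0.05). With the MAS5-type signals the pathway counts were 3 and 1 and 1 other Rab was higher in C57Bl/6J. Pathway genes higher in C57Bl/6J numbered 5 with array weights and 6 with the set of arrays as a block. The block count is not separate evidence, since the sets were chosen with earlier results of these data known. Leaving out each array gave 920 to 1254 probe sets towards AKR/J and 1064 to 1566 towards C57Bl/6J, the lowest of the latter without array 2, with 4 to 5 and 2 to 6 pathway genes (6 without array 3) and 2 to 4 other Rabs either way. Sign changes were all among values that did not pass: Rab3d 1449260_at (-0.10), Rab27b 1443764_x_at (0.21), Sytl4 (0.02) and Pde4d (0.13) with the MAS5-type signals; Sytl4 (0.03) and Pde4d (0.04) with median centring; Pde4d (0.04) with quantile normalisation; Myrip (0.01) with array weights; Ryk (-0.08) with no filter; Rab27a 1429123_at (-0.22), Pde4d (0.04) and Plk2 (0.17) in arrays 1, 2, 5 and 6; Rab6a 1448305_at (0.05), Sytl4 (0.35), Madd (-0.01) and Ryk (-0.06) in arrays 3, 4, 7 and 8. With each array left out, Rab27a 1429123_at ran from -0.08 to 0.14, Sytl4 from -0.16 to 0.12, Myrip from -0.17 to 0.05, Madd from -0.03 to 0.12, Pde4d from -0.08 to 0.12 and Ryk from -0.08 to 0.16. The cause of these changes was not tested.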
